A study of Mus musculus with 5 samples.

Results

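Of 36447 distinct transcription start site (TSS) windows with nucleosome signal, 478 (1.31%) had a peak on each side of the TSS with no more than 260 bp between them. They are called narrow windows here. Each window reaches 1000 bp to the left and to the right of its TSS, at 10 bp per bin, and the values are a nucleosome signal derived from ATAC-seq, in which the Tn5 transposase cuts accessible DNA and the fragment lengths report the nucleosomes beside it. Signal is given relative to the mean of its own library, so that 1 is the average bin of all deposited rows. The choice used M, the average of the wild-type mean and the knockout mean. A narrow window had a mean M of at least 1.3, a central trough (the bins up to 50 bp from the TSS) below its flanks (50 to 200 bp on either side), flanks no lower than the outer 300 bp of the window, and a larger flank under 2 times the smaller. The criteria other than the distance left 2452 windows, called two-flank windows, of which the narrow ones were 19.5%. The signal itself chose these windows, so their depth of trough, their level and their distance in M are descriptions and carry no test.

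The cells were mouse pre-B cell leukaemia cells on the C57BL/6J background. All 5 libraries shared BCR-ABL1 overexpression, which supplies an active tyrosine kinase, and loss of p19, a tumour suppressor. Of the libraries, 2 had wild-type PHF6 (replicates 1 and 3) and 3 were PHF6 null (replicates 1, 2 and 3), here called knockout. The design text names the replicates biological without saying if each came from its own culture, clone or animal, and a p-value here measures the spread between these libraries. The comparison asks how nucleosome signal around TSSs differs with loss of PHF6, a nuclear protein with plant homeodomain-type zinc fingers.

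At many active promoters the DNA next to the TSS holds no stable nucleosome. This nucleosome-depleted region is bordered by a +1 nucleosome on the gene side and a -1 nucleosome on the other side, and its width reflects DNA sequence, bound transcription factors, remodelling enzymes and the transcription machinery. Regularly spaced nucleosomes often follow the +1 nucleosome into the gene. A nucleosome itself wraps somewhat less DNA than the spacing from one nucleosome centre to the next. The rows carry no gene names, coordinates or strand, so the windows are cited by row number, left and right stand for a fixed column order rather than upstream and downstream, and no gene, promoter sequence or level of Phf6 itself is reported.

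The libraries differed in how filled they were. In the narrow windows, 21.4 and 22.3% of bins were listed at 0 for wild type, and 19.9, 23.9 and 33.6% for knockout replicates 1, 2 and 3. The mean of the deposited signal was 0.316 in knockout replicate 3 and 0.533 to 0.600 elsewhere. Every narrow window had signal in every library. Read counts are not among the values, and the depth of each library is unknown. Where 5 values follow one another below, they are wild-type replicates 1 and 3, then knockout replicates 1, 2 and 3.

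Distances between the highest left and highest right bins of M ran from 120 to 260 bp in the narrow windows, with a median of 230 bp and quartiles of 190 and 250 bp. Over all two-flank windows the median was 310 bp. The count of windows per 10 bp step was not a single slope. It was 40 windows at 190 bp, 27 at 210 bp, 28 at 220 bp and 75 at 260 bp. The 260 bp limit cut this second slope, with 122 windows just outside it at 270 bp. After the distances had been seen, the narrow windows were divided at the low point into 15 at 150 bp or less, 179 at 160 to 210 bp and 284 at 220 to 260 bp. Just above the level limit, the windows in rows 16533 and 23311 had a mean M of 1.31 at distances of 250 and 220 bp. Just below it, those in rows 36123 and 9306 had 1.299 and 1.296 at 230 and 180 bp.

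**Figure D1:**
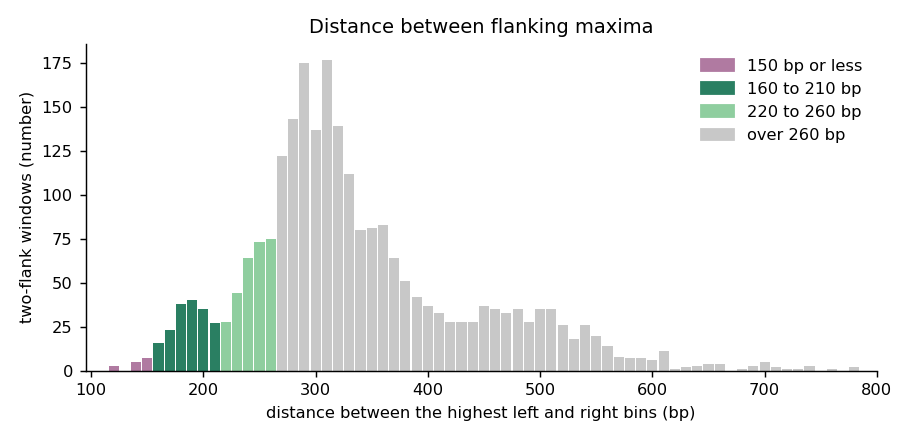
Number of two-flank windows at each distance between the highest left and right bins of M, in steps of 10 bp, coloured by distance class. A local maximum of 40 windows stands at 190 bp, below the main slope of the distribution, which the 260 bp limit of the narrow windows crosses.

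The narrow windows had a level similar to that of the neighbouring distance class. Their median mean M was 2.19, against 2.17 in the 1443 two-flank windows at 270 to 400 bp, and the strongest reached 7.58. The trough was 30.1% of the flanks at the median, with quartiles of 12.6 and 54.6%. It became shallower with shorter distance, from 16.9% of the flanks at 270 to 400 bp to 18.3% at 220 to 260 bp, 38.6% at 160 to 210 bp and 79.9% at 150 bp or less. The fixed trough region then also takes in the inner slopes of the peaks. In 29 narrow windows the highest bin of one side lay inside the trough region itself. The midpoint between the 2 peaks lay within 50 bp of the TSS in 427 of the 478 windows (89.3%). The right flank was the higher in 244 windows and the left in 234.

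Some narrow windows had near copies among the others. At a correlation above 0.9 and a shift of at most 400 bp, 15 pairs of narrow windows were near-identical, with a median shift of 60 bp and a largest of 230 bp. These pairs held 30 windows (6.28%), and counting each pair once left 463 groups. An exact run of 6 shared bins was found in 2 pairs of narrow windows. Without coordinates, whether the near-identical pairs overlap in the genome was not settled. No pair matched in reversed column order.

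The narrow spacing recurred only in part from library to library. With the distance measured in each library by itself, 26 of the 478 windows were at 260 bp or less in all 5 libraries, 82 in 4, 113 in 3, 148 in 2, 96 in 1 and 13 in none. The complete set of criteria was met in all 5 libraries by 2 windows and in at least 1 library by 352. The choice was therefore repeated on 1 library of each genotype, and the distances were read in the 3 libraries left out. Each of the 6 possible choices gave between 400 and 497 narrow windows. In the libraries left out, 31.7 to 43.3% of them were again at 260 bp or less, with a median distance of 285 to 340 bp. Of the two-flank windows chosen with longer distances, 9.15 to 19.4% were at 260 bp or less, with a median of 330 to 350 bp. The shares of the chosen and the other windows did not overlap over these 18 values, which share libraries and were not tested. Most windows chosen as narrow thus measured over 260 bp in a library not used to choose them.

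**Figure D2:**
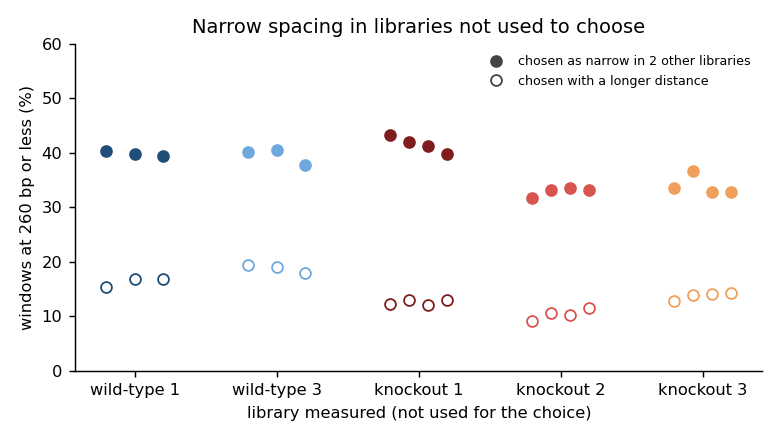
Percent of windows at 260 bp or less in each library not used for the choice. Filled points are windows chosen as narrow in 2 other libraries and open points two-flank windows chosen with a longer distance, with 1 point of each kind per choice. Filled points lie between 31.7 and 43.3% and open points between 9.15 and 19.4%.

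The shorter class also recurred in part. Of windows chosen at 160 to 210 bp, 26.9 to 34.6% were again at 160 to 210 bp when a wild-type library was left out, and 11.9 to 27.0% when a knockout library was left out. In the two-flank windows chosen with distances over 260 bp the share at 160 to 210 bp was 4.97 to 7.19% in the wild-type and 1.90 to 3.95% in the knockout libraries. Both ranges lay below those of the chosen windows. The wild-type and knockout shares of the chosen windows overlapped, since knockout replicate 1 lay at 21.9 to 27.0%, and their difference was not tested.

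With the complete rule applied to each library alone, the wild-type libraries gave 420 and 486 narrow windows and the knockout libraries 385, 321 and 368. As a share of the two-flank windows of that library these were 22.8 and 26.5% in wild type against 22.1, 18.8 and 22.1% in knockout. The wild-type values lay above the knockout ones (24.6% ± 2.62, SD, n = 2, against 21.0% ± 1.94, SD, n = 3; exact permutation p = 0.1, the smallest that 5 libraries allow, and not among the comparisons adjusted below). The share at 160 to 210 bp was 7.96 and 12.4% in wild type against 6.95, 5.32 and 7.02% in knockout, again without overlap (exact permutation p = 0.1). A choice on the wild-type mean gave 534 narrow windows and one on the knockout mean 374. The 91 windows in both lists were 17.0% of the wild-type and 24.3% of the knockout list.

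The average profile of the 478 windows held a central minimum between sharp peaks in every library. The left peak stood at -115 bp in both wild-type libraries and at -125 bp in all 3 knockout libraries, and the right peak at 95 bp in wild-type replicate 3, 1 bin farther out in wild-type replicate 1 and at 115 bp in every knockout library. The left peak height was 8.18 and 6.55 in wild type versus 8.75, 9.61 and 8.66 in knockout, relative to a library mean of 1. The right peak height was 7.96 and 7.40 in wild type against 8.71, 10.2 and 9.45 in knockout. In both peaks of the average profile every knockout library stood above both wild-type libraries. Read instead at the 2 highest bins of M in each window, the signal was 14.0, 12.5, 13.7, 14.8 and 13.5. There the groups overlapped (exact permutation p = 0.6, not among the comparisons adjusted below).

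Beyond the peaks the profiles held a second, lower maximum. Measured outward from the peak of each window, it lay at 190 bp in both wild-type and at 200 bp in all 3 knockout libraries. Its height was 3.12, 2.80, 3.38, 3.89 and 3.73, against 1.37, 1.29, 1.28, 1.35 and 1.59 in the minimum before it. In the 160 to 210 bp class the second maximum was nearer, at 180 bp in wild type against 190 bp in knockout. In the 220 to 260 bp class it lay at 200 to 220 bp and in the two-flank windows at 270 to 400 bp at 200 to 210 bp. In the 160 to 210 bp class, the peaks of M that border the trough were about as far from each other as from the next maximum outward. The class itself set the first of these distances, so their closeness carries no test. Read in each library alone, the median distance between the peaks was 210 bp in both wild-type libraries and 250, 330 and 330 bp in knockout.

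**Figure D3:**
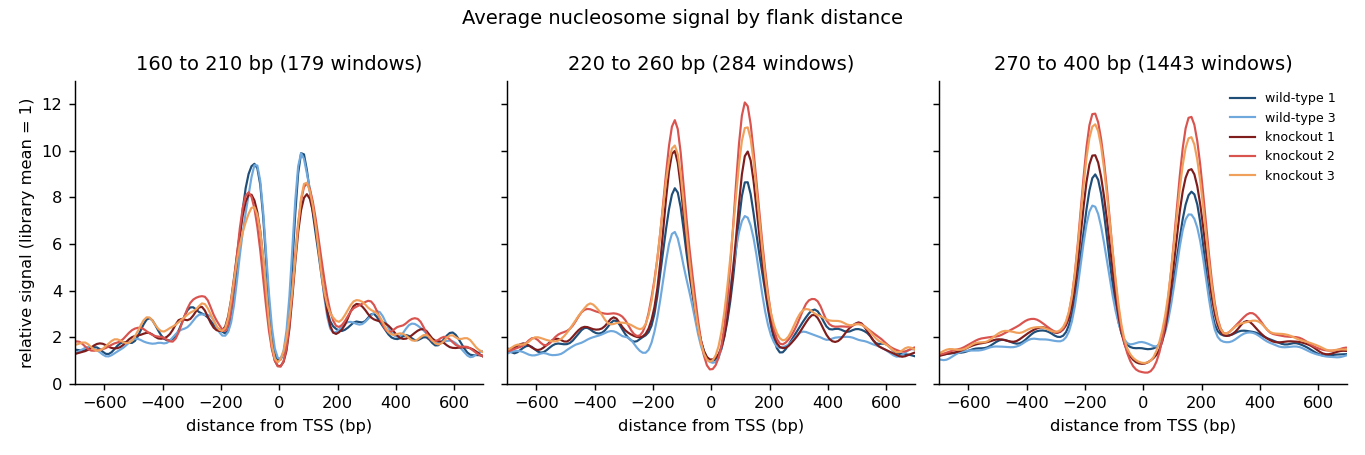
Average relative signal by distance from the TSS in windows at 160 to 210 bp, at 220 to 260 bp and, for comparison, in two-flank windows at 270 to 400 bp, with 1 line per library. The wild-type lines are the highest at the peaks of the first panel and the lowest at those of the other panels, and lower maxima follow on both sides.

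Between genotypes, the narrow windows as a group had higher flanks and a lower trough in the knockout libraries on the relative scale. The flanks were at 5.94, 5.28, 6.15, 6.97 and 6.65, with a wild-type mean of 5.61 ± 0.468 (SD, n = 2) and a knockout mean of 6.59 ± 0.411 (SD, n = 3). The groups did not overlap (ratio 1.18, exact permutation p = 0.2, adjusted p = 0.292). The trough was at 1.96, 1.97, 1.65, 1.61 and 1.88, with a wild-type mean of 1.97 ± 0.00859 (SD, n = 2) and a knockout mean of 1.72 ± 0.149 (SD, n = 3). These did not overlap either (ratio 0.872, exact permutation p = 0.2, adjusted p = 0.292). The region 250 to 400 bp from the TSS was at 2.46, 2.21, 2.52, 2.86 and 2.80 (ratio 1.17, exact permutation p = 0.2, adjusted p = 0.292). At 400 to 700 bp the values were 1.82, 1.62, 1.81, 2.05 and 2.06, and there the groups overlapped (exact permutation p = 0.3, adjusted p = 0.389). Adjusted values are Benjamini-Hochberg over 35 profile comparisons, of which 16 reached the exact p of 0.1 and none an adjusted p below 0.219, so none passed a threshold of 0.05.

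The flank-to-trough ratio within a library needs no scaling between libraries. It was 3.03, 2.68, 3.73, 4.33 and 3.53, higher in all 3 knockout than in both wild-type libraries (2.85 ± 0.251, SD, n = 2, against 3.86 ± 0.416, SD, n = 3; exact permutation p = 0.1, adjusted p = 0.219). The trough was below 50% of the flanks in 71.5 and 68.4% of the windows in wild type and in 74.9, 78.5 and 75.5% in knockout (exact permutation p = 0.1, adjusted p = 0.219). In the share of troughs listed wholly at 0, the wild-type libraries had 12 and 8 windows and the knockout libraries 15, 18 and 23. The part of the 0 bins in the flank-to-trough ratio was not tested.

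The gap between genotypes in the flank-to-trough ratio was smaller in the narrow windows than in the neighbouring distance class. In two-flank windows at 270 to 400 bp the ratio was 3.66, 2.92, 6.20, 11.3 and 6.72. Troughs listed wholly at 0 made up 8.32, 7.28, 11.4, 20.7 and 15.7% of those windows. In the narrow windows they made up 2.51, 1.67, 3.14, 3.77 and 4.81%, and their part in the gap was not tested. The log2 ratio of the narrow windows minus that of the 270 to 400 bp windows was -0.27 and -0.12 in wild type versus -0.73, -1.38 and -0.93 in knockout. The difference between genotypes was -0.82 (exact permutation p = 0.1, adjusted p = 0.219), with no overlap. The trough and the flanks both contributed. The log2 trough of the narrow windows exceeded that of the 270 to 400 bp windows by 0.36 and 0.20 in wild type, by 0.72 and 0.83 in knockout replicates 1 and 3 and by more in knockout replicate 2, a difference between genotypes of 0.67 (exact permutation p = 0.1, adjusted p = 0.219). The log2 flank level of the narrow windows was higher by 0.09 and 0.08 in the wild-type libraries, and the same difference was -0.01, -0.08 and -0.10 in the knockout ones. The genotypes differed there by -0.15, again with no overlap (exact permutation p = 0.1, adjusted p = 0.219). Against the 531 two-flank windows over 400 bp, the genotype difference of the log2 ratio was -0.00435 (exact permutation p = 1, adjusted p = 1). Against all other two-flank windows it was -0.60 (exact permutation p = 0.1, adjusted p = 0.219).

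The 160 to 210 bp and 220 to 260 bp classes differed in their flanks. In the 160 to 210 bp class the flanks were at 6.17 and 6.02 in wild type against 5.60, 5.73 and 5.61 in knockout, so that both wild-type libraries were higher. In the 220 to 260 bp class they were at 5.86 and 4.91 in wild type against 6.64, 7.94 and 7.47 in knockout, so that all knockout libraries were higher (ratio 1.36). The log2 flank level of the shorter class minus that of the longer class, taken within each library, was 0.07 and 0.29 in wild type versus -0.25, -0.47 and -0.41 in knockout. The difference between genotypes was -0.56 (exact permutation p = 0.1, adjusted p = 0.219), and it needs no scaling between libraries. The peak heights followed the same order. On the right they were 9.90 and 9.90 in wild type against 8.14, 8.60 and 8.63 in knockout at 160 to 210 bp. At 220 to 260 bp they were 8.65 and 7.20 in wild type against 9.97, 12.1 and 11.0 in knockout.

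M gives each wild-type library a weight of 25% and each knockout library 16.7%, and the choice of a distance class follows the highest bins of M. With the 5 libraries weighted equally, the 158 windows at 160 to 210 bp had flanks at 6.07 and 5.82 in wild type versus 5.62, 5.79 and 5.83 in knockout, which overlapped. The 287 windows at 220 to 260 bp then had 5.71 and 4.89 in wild type against 6.58, 7.99 and 7.44 in knockout, still apart. In windows chosen on 1 library of each genotype, the signal at the chosen peaks in a library left out was, as the median over choices, 11.6 and 11.7 in the wild-type and 11.4, 10.7 and 10.6 in the knockout libraries at 160 to 210 bp. It was 12.1 and 9.88 in the wild-type and 13.4, 14.8 and 13.7 in the knockout libraries at 220 to 260 bp. In each of the 6 choices the wild-type library left out was above both knockout libraries left out at 160 to 210 bp, and below both at 220 to 260 bp. The closest values at 160 to 210 bp were 11.58 in wild-type replicate 1 against 11.57 in knockout replicate 1. The choices share libraries and were not tested. With equal weights the right peak of the shorter class was also apart, at 9.76 and 9.58 for wild type and 8.35, 8.47 and 8.62 for knockout, while its left peak overlapped (8.70 and 8.11 for wild type, 8.20, 8.19 and 8.21 for knockout).

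The trough of the 160 to 210 bp class was at 2.59 and 2.88 in wild type against 1.90, 1.86 and 2.16 in knockout (ratio 0.721), without overlap. In the 220 to 260 bp class it was at 1.45, 1.37, 1.49, 1.38 and 1.66, where the groups overlapped. The fixed 50 bp limit bears on the first of these values, since the right peak of the shorter class stood at 75 bp in both wild-type and at 95 bp in all knockout libraries. Taken instead at the valley between the 2 peaks of each window, the 160 to 210 bp class was at 0.746, 0.878, 0.788, 0.744 and 0.960, and the groups overlapped. The valley of the 220 to 260 bp class was at 0.938 and 1.03 in wild type versus 0.629, 0.578 and 0.674 in knockout, below both wild-type values in all 3. In libraries left out of the choice, the valley of that class had medians over choices of 0.886 and 1.09 for wild type and 0.729, 0.485 and 0.903 for knockout, which overlapped. Whether the genotypes stood apart in the centre therefore depended on reading the fixed trough or the valley and, for the valley at 220 to 260 bp, on how the windows were chosen.

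**Figure D4:**
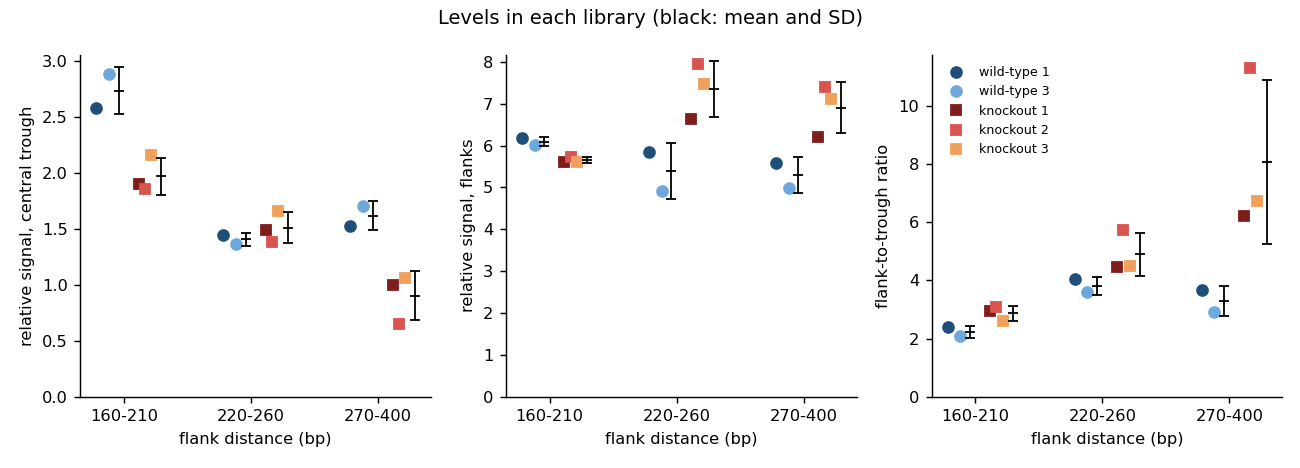
Relative signal of the central trough and of the flanks, and their ratio, in each library for 3 distance classes. Circles are wild-type and squares knockout libraries, and black bars show mean and SD. Flanks of the knockout libraries lie below wild type at 160 to 210 bp (5.60 to 5.73 against 6.02 and 6.17) and above it at 220 to 260 bp.

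The distance measured in each library alone had a median of 260 and 250 bp in wild type against 260, 280 and 295 bp in knockout over all narrow windows (exact permutation p = 0.3, adjusted p = 0.389). The groups overlapped, and 52.5, 54.4, 55.0, 44.6 and 42.3% of the windows were at 260 bp or less (exact permutation p = 0.4, adjusted p = 0.467). With equal weights the difference in the median distance was 1.67 bp in place of 23.3 bp. In the 160 to 210 bp class the medians were 210 bp in both wild-type libraries and 250, 330 and 330 bp in knockout. With equal weights it was 210 bp in both wild-type libraries and 230, 315 and 320 bp in knockout. In the 220 to 260 bp class the medians were 270, 270, 260, 270 and 270 bp. With equal weights they were 280 and 270 bp in the wild-type libraries and 260 bp in every knockout library, apart in the opposite direction to the shorter class. The share of that class at 260 bp or less was then 41.8 and 45.0% for wild type and 55.1, 53.7 and 50.9% for knockout. Equal weights give the 3 knockout libraries together more of M than the 2 wild-type ones. Under either weighting M chose the classes by distance, so these differences carry no test. In libraries left out, part of the windows chosen at 220 to 260 bp fell again in that class. The medians over choices were 25.6 and 24.3% for wild type and 32.1, 29.1 and 25.5% for knockout, which overlapped.

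Window by window, limma on log2(relative signal + 0.1) called 0 of the 36447 windows at a Benjamini-Hochberg adjusted p of 0.05 over all windows (0%), in the whole window, the trough, the flanks and the flank-trough contrast alike. At an unadjusted p of 0.05, limma gave 71 narrow windows with more whole-window signal in the knockout libraries (14.9%, against 4.54% of all windows) and 16 with less (3.35%, against 6.67%). Of the 9610 windows with a mean M of at least 1.3, limma fitted on them alone gave 15.2% and 2.03%. For the trough it gave 11 narrow windows higher and 27 lower over all windows (1.28% and 5.7% of all windows), for the flanks 41 and 19 (3.39% and 4.42%), and for the contrast 23 and 7 (4.93% and 3.15%).

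In 116 narrow windows (24.3%) the whole-window signal of all knockout libraries exceeded that of both wild-type libraries, against 9.69% of all windows and 26.3% of those with a mean M of at least 1.3. In 42 (8.79%) all knockout libraries were lower, against 20.4% and 6.75%. For the flanks 102 were higher without overlap (9.61% of all windows, 21.5% of the strong ones) and 46 lower (13.7% and 7.74%). For the trough 52 were higher (4.77% and 8.46%) and 68 lower (14.5% and 18.3%). For the contrast 75 were higher (11.7% and 20.4%) and 36 lower (9.52% and 7.17%). In the whole window and the flanks the shares of the narrow windows were near those of the strong windows. A lower trough without overlap was seen in 14.2% of the narrow windows and in 23.4% of the windows at 270 to 400 bp.

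The median log2 difference of the narrow windows, knockout minus wild type, was 0.15 in the whole window, 0.18 in the flanks, -0.11 in the trough and 0.26 in the contrast, against medians of all windows of -0.21, -0.17, -0.28 and 0.09. Quantile normalization turned the signs of all 4. It was done for the flanks and the trough separately, so the contrast after it is no longer a ratio within a library. Leaving out the scaling kept the signs of the trough and the contrast and brought the whole window and the flanks near 0. Without scaling, the medians of the narrow windows were -0.01, 0.00, -0.24 and 0.19, and those of all windows -0.29, -0.22, -0.24 and 0.04. After quantile normalization they were -0.06, -0.06, 0.40 and -0.50 in the narrow windows, against -0.01, 0.02, 0 and -0.02 in all windows. Without scaling, whole-window signal was higher without overlap in 32 narrow windows (3.29% of all windows) and lower in 53 (20.8%), in place of 116 and 42. After quantile normalization it was higher in 77 (12.9% of all windows) and lower in 90 (12.1%). The trough was then higher without overlap in 82 (7.68%) and lower in 46 (10.2%), in place of 52 and 68. The contrast was then higher in 41 (10.1%) and lower in 84 (11%), in place of 75 and 36.

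By distance, the median flank difference ran from -0.37 at 160 bp and -0.51 at 170 bp through -0.02 at 200 bp to 0.49 at 260 bp. In the 160 to 210 bp class the median was -0.19, with 71 of 179 windows higher in the knockout mean. In the 220 to 260 bp class it was 0.41, with 205 of 284 higher. For the trough the class medians were -0.59 (66 of 179 higher) and 0.12 (153 of 284 higher). These medians are on the relative scale and share the weights of M described above.

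**Figure D5:**
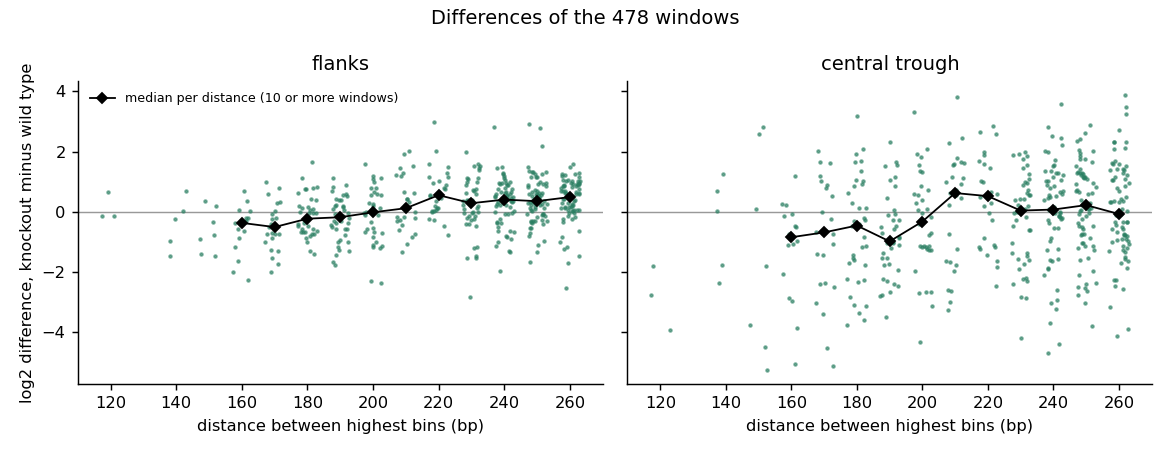
Log2 difference, knockout minus wild type, of each narrow window in the flanks and in the central trough by distance between the highest bins. Points are windows, shifted slightly sideways to separate them, and diamonds are medians of distances with at least 10 windows, which for the flanks run from -0.37 at 160 bp to 0.49 at 260 bp.

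An added fit, chosen after the data had been seen, tested only the 9610 windows with a mean M of at least 1.3. There limma with Benjamini-Hochberg adjustment over those windows called the whole-window signal of 17 narrow windows, 16 higher in knockout (3.35%, against 3.44% of the windows tested) and 1 lower (0.209%, against 0.114%). The 17 form 16 groups, as the windows in rows 16435 and 36049 are near-identical. All but 1 of the 17 belong to the 220 to 260 bp class. Without wild-type replicate 3 none of them was called, without knockout replicate 2 only 1 remained and without wild-type replicate 1 there remained 5. Of the windows tested, 0.0208, 0.166 and 0.812% were called higher in these fits, in the same order, against 3.44% with all libraries. The calls thus fell over all windows tested as well. The same fit called the flanks of 5 narrow windows, all higher in knockout (0.458% of the windows tested). Of these, 3 were called without knockout replicate 1 (0.114% of the windows tested were called higher). Without knockout replicate 2 it was 1 (0.052%) and without knockout replicate 3 it was 0 (0.0208%). None of the 5 was called without wild-type replicate 3, where 1 other narrow window was (0.114%). With all libraries it called no trough and no contrast. At an unadjusted p of 0.05, limma gave there 77 narrow windows higher and 16 lower in the whole window, 68 and 23 in the flanks (10.8% and 2.16% of the windows tested), 6 and 19 in the trough (2.01% and 7.42%), and 20 and 4 in the contrast (9.5% and 1.49%). With all windows but the 25% of lowest mean, limma called the whole window of 9 narrow windows higher (0.563% of those tested) and 1 lower (0.0915%). In that fit it called the flanks of 4 higher (0.117%) and of none lower (0.00366%).

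The narrow window with the smallest p was that in row 6642, at a distance of 250 bp. Its whole-window signal was 1.40 and 1.88 in wild type against 3.55, 4.50 and 6.06 in knockout. All knockout values were above both wild-type values, by 1.44 ± 0.290 (SE) on the log2 scale (limma, adjusted p = 0.165 over all windows and 0.00153 over the strong ones). Its flanks were at 6.57, 4.95, 3.604, 13.6 and 11.4, and there the groups overlapped.

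In row 14904, at 230 bp, the whole-window signal was 2.02, 1.81, 3.49, 5.70 and 7.21. The log2 difference was 1.41 ± 0.304 (SE; limma, adjusted p = 0.193 over all windows and 0.00153 over the strong ones). Here the flanks moved with the window, at 5.97 and 5.87 in wild type versus 11.3, 21.2 and 25.04 in knockout. Its distance was at most 260 bp in every library alone, at 230, 240, 200, 250 and 210 bp.

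In row 5598, at 220 bp, the flanks were at 2.28 and 0.529 in wild type against 8.83, 11.2 and 9.04 in knockout, a ratio of 6.90 and the largest flank difference among the called windows (log2 2.99). Its distance in the wild-type libraries alone was 500 and 510 bp, against 280, 180 and 340 bp in knockout, so the highest bins lay farther from the TSS where the flanks were low. The window in row 13934, at 260 bp, had flanks at 2.93, 3.21, 8.96, 13.1 and 6.95. Its whole-window signal was 1.37 and 1.08 in wild type against 2.94, 3.22 and 3.01 in knockout (log2 1.26, limma, adjusted p = 0.202 over all windows and 0.0131 over the strong ones). With a wild-type mean of 1.23 and a knockout mean of 3.06, it met the limit of 1.3 only through the knockout libraries. The value over the strong windows rests on that choice, made on the same whole-window signal.

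Among windows with less signal in knockout, row 19499 (260 bp) was the only narrow window called lower in the fit to the strong windows. Its whole-window signal was 4.60 and 2.96 in wild type versus 1.13, 1.84 and 1.57 in knockout, and the log2 difference came to -1.26 ± 0.304 (SE, limma, adjusted p = 0.204 over all windows and 0.0143 over the strong ones). The other 3 named windows of this direction had short distances of 170 to 200 bp. In row 11685 (200 bp) the flanks were at 5.25 and 8.52 in wild type against 0.996, 1.55 and 1.15 in knockout, and its distance was 180 and 200 bp in the wild-type libraries and 300, 420 and 370 bp in knockout. Its whole-window mean was 2.31 in wild type and 1.03 in knockout, so it met the limit of 1.3 only through the wild-type libraries. In row 11667 (200 bp) the whole window was at 5.48, 3.37, 2.90, 2.34 and 1.79.

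The window in row 12256 (170 bp) was low in the knockout libraries both over the whole window and in the trough. The whole window was at 2.26 and 2.31 in wild type against 0.997, 0.786 and 0.951 in knockout. The trough was at 5.44 and 6.61 in wild type versus 0.176, 0 and 0.0975 in knockout. Its right peak in M lay at 55 bp, next to the trough region, so the trough values hold part of that peak. In row 12139 (150 bp), whose right peak was also at 55 bp, the trough was at 6.15 and 4.14 in wild type against 0, 0.0102 and 0.122 in knockout. In row 6327 (170 bp), with a left peak at -55 bp, it was at 5.27, 15.1, 0.559, 0.261 and 0.156. In the wild-type mean all 3 troughs stood above the flanks, at 6.02 against 5.625, 5.15 against 3.83 and 10.2 against 9.03. These windows met the criterion of a trough below the flanks only through the knockout libraries, so the choice itself bears on their trough differences. Limma gave each of these 3 troughs an adjusted p of 0.683 over all windows.

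A higher flank-trough contrast in knockout came about in different ways. In row 11809 (240 bp) both parts differed. Its trough was at 0.915 and 5.44 in wild type against 0.00895, 0.0150 and 0.0130 in knockout, while its flanks were at 8.06 and 9.38 in wild type versus 17.8, 21.4 and 18.6 in knockout. In row 13061 (260 bp) the flanks overlapped, at 7.92, 5.22, 6.83, 5.76 and 7.94, and the trough alone was apart, at 2.71 and 1.93 in wild type against 0, 0.0842 and 0.0432 in knockout. In row 16435 (230 bp) the trough was at 1.64 and 1.98 in wild type and below 0.01 in each knockout library, and its distance was at most 260 bp in every library alone, at 230, 190, 250, 230 and 210 bp. In wild-type replicate 3 its trough was not below its flanks, which were at 1.93. The near-identical window in row 36049 went the other way. Its log2 difference was 1.85 in the trough and -0.45 in the contrast, against -4.18 and 5.71 in row 16435. In row 5075 (200 bp) the flanks were at 3.13, 3.44, 10.4, 11.8 and 8.22 and the trough at 2.58, 5.31, 0.396, 0.4997 and 0.625. Its wild-type mean was 3.95 in the trough and 3.29 in the flanks, so its trough lay below its flanks only through the knockout libraries. Limma gave the contrasts of rows 11809, 13061, 16435 and 5075 an adjusted p of 0.557 over all windows.

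The opposite pattern, a filled trough in knockout, was seen in row 7337 (260 bp). Its trough was at 0.289 and 0.858 in wild type against 4.66, 11.4 and 13.5 in knockout, and its right peak in M stood at 65 bp, close to the trough region. In row 9893 (150 bp) the trough was at 1.23 and 1.09 in wild type versus 4.63, 11.7 and 12.2 in knockout, and the distance was 160 bp in both wild-type libraries but 540, 430 and 300 bp in knockout. Its knockout mean was 9.51 in the trough and 5.35 in the flanks, so its trough lay below its flanks only through the wild-type libraries. The trough of row 10522 (260 bp) was at 0.0879, 0, 1.01, 2.05 and 1.44. Its whole-window mean was 1.17 in wild type and 1.73 in knockout, so it met the limit of 1.3 only through the knockout libraries. In row 6969 (210 bp) the flanks overlapped, from 5.26 to 11.8, and the trough was at 0.0208, 0.0341, 0.520, 2.10 and 3.98. In row 3737 (200 bp) it was at 0.00239, 0.00634, 0.456, 2.92 and 0.585. In all 5 windows every knockout trough was above both wild-type troughs. Limma gave an adjusted p of 0.683 over all windows for the troughs of rows 7337, 9893 and 10522, and of 0.557 to 0.591 for the contrasts of rows 9893, 7337, 3737 and 6969.

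The strongest narrow windows were at the long end of the range. Row 1473 (260 bp, mean M 7.58) had flanks at 17.5 and 14.9 in wild type against 32.1, 37.8 and 25.5 in knockout, which did not overlap (log2 0.95, limma, adjusted p = 0.621 over all windows). Its distance was stable, at 250, 260, 270, 260 and 270 bp, and its trough was at most 0.526. Row 8583 (250 bp, mean M 6.88) had flanks at 20.4, 25.8, 26.7, 36.6 and 25.9 with distances of 250, 250, 240, 240 and 270 bp. Row 13528 (240 bp, mean M 6.57) was less regular, with flanks at 5.26, 11.3, 8.80, 13.9 and 27.3 and distances of 790, 230, 500, 240 and 240 bp.

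The deepest troughs among windows at 160 bp or more were in rows 29998, 7160 and 945, at 240, 250 and 260 bp. In row 29998 the trough was listed at 0 in wild-type replicates 1 and 3 and knockout replicate 3 and was 0.00138 and 0.000706 in knockout replicates 1 and 2, beside flanks at 8.42, 3.92, 6.10, 8.78 and 8.12. The flanks of row 7160 were at 12.6, 5.84, 13.1, 20.02 and 9.61 with a trough of at most 0.0909. Those of row 945 were at 11.7, 7.79, 13.4, 6.31 and 7.34 with a trough of at most 0.0990. In these 3 windows the flanks of the genotypes overlapped.

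The 3 shortest distances, 120 bp each, were in rows 6080, 6635 and 7353. Their troughs were 96.3, 92.6 and 84.0% of their flanks in M, so these windows had little depletion at the TSS. Row 6080 had peaks at -95 and 25 bp in M, and its distance in the libraries alone was 250, 550, 190, 380 and 310 bp. Row 6635 was short in most libraries, at 110, 100, 130, 230 and 160 bp. Row 7353 was at 20, 170, 400, 510 and 460 bp. Its trough held 7.46 and 2.87 in wild type against 0.00492, 1.38 and 0.0887 in knockout, with no overlap. Its wild-type mean was 5.16 in the trough and 2.96 in the flanks, so its trough lay below its flanks only through the knockout libraries. Over the 15 windows at 150 bp or less the median distance in the libraries alone was 150, 240, 230, 380 and 330 bp, and 80, 53.3, 60, 26.7 and 6.67% of them were at 260 bp or less.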

How the data were processed

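ATAC-seq libraries from 2 wild-type and 3 PHF6 knockout samples were used. The authors deposited, per library, a matrix of nucleosome signal with 37310 rows and 200 bins of 10 bp. Bowtie2, MACS2 and mm9 are named, without versions, in the submitters' processing notes. The file names attribute the signal to NucleoATAC. For its settings, its scaling and the TSS list, no source used here gives details. The values are no counts, so depth is unknown and the number of libraries limits precision.

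Each matrix was divided by its mean over all deposited rows. Rows without signal in any library (818) and repeats of another row (45) were left out. Differences were fitted with limma 3.58.1 (R 4.3.3; lmFit, eBayes with trend, 2-sided) on log2(relative signal + 0.1) over all 36447 windows with Benjamini-Hochberg adjustment. The pseudocount understates differences of low values. Window averages per library were compared by exact 2-sided permutation over the 10 splits of 5 libraries (Python 3.11.15, numpy 2.4.6, pandas 2.3.3). Scripts were tested on simulated data. The main fits did not pair libraries by replicate number, since the deviations of libraries with the same number were hardly correlated. With only 2 wild-type libraries, whose deviations mirror each other, this cannot exclude a pairing.

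Named windows were, among the narrow ones, the 4 smallest p in each direction for the whole window and for the contrast, 3 in each direction for the trough, the 3 strongest, the 3 with the deepest trough at 160 bp or more, the 3 shortest, and 2 windows on either side of the level limit. The windows and rules were chosen with earlier results of these data known. Alternatives were pseudocounts of 0.02 and 0.5, no scaling, other scalings and quantile normalization, a filter on the lowest 25%, other limits and weights for the choice of windows, a replicate block, and leaving out each library.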

Additional observations from a re-analysis of the deposited data

How the results depend on the processing

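Counts of called windows depended on the windows tested and on single libraries. The whole-window count of 0 became 1 with quantile normalization, 10 (9 higher, 1 lower) without the 25% of windows with the lowest mean, and 17 among windows with a mean M of at least 1.3. The flank count of 0 became 4 and 5 under the last 2 of these. For quantile normalization the share of all windows called is not reported here, so its count of 1 cannot be set against it. Fewer tests and a different trend enter each fit. Leaving out 1 library gave 0 to 7 trough calls, all lower, with 7 (1.46% of the narrow windows) without either wild-type library, against 10.1% of all windows called lower without replicate 1 and 8.79% without replicate 3. It gave 0 to 4 flank calls, with 4 higher (0.837%) without wild-type replicate 1, against 0.0466% of all windows. In the fit to windows with a mean M of at least 1.3 it gave 0 to 19 whole-window calls (19 without knockout replicate 1, of which 16 higher against 3.79% of the windows tested and 3 lower against 0.166%) and 0 to 4 flank calls (4 without wild-type replicate 1, against 0.479%). That fit also called 6 lower troughs without wild-type replicate 1 (4.65% of the windows tested) and 3 without wild-type replicate 3 (2.25%), and 2 higher contrasts without wild-type replicate 1 (0.354%). Without a wild-type library, the spread comes from the knockout libraries alone. A replicate block pairs libraries only by number. The correlation of deviations was -0.06 for replicate 1 and -0.04 for replicate 3 over all windows, and 0.04 for both in the narrow windows. In the fit to windows with a mean M of at least 1.3, the block left 1 whole window called higher (0.166% of the windows tested). It left the flanks of 3 called higher (0.177%). For the log2 flank-to-trough ratio it gave 0.35 in place of 0.43.

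Of the average values, the log2 flank difference was -0.0237 with distances up to 220 bp in place of 0.23, and the difference in the share at 260 bp or less was 0.435 percentage points with libraries weighted equally in place of -6.17. The cause was not tested. Windows chosen on 2 libraries with a mean of at least 2 had a median distance of 290 bp in the libraries left out, in place of 310 bp. The other 95 average values kept their direction and side of the threshold under the alternatives run. Of the values of the 19 named windows tested, 253 did so, 11 newly passed the threshold and 0 changed sign. These windows were named for the smallest p in each direction in the same libraries, so a kept sign carries no test. The medians over all narrow windows did change sign with quantile normalization, as given above.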
